A study of Mus musculus with 36 samples.

Results

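The growth hormone and IGF1 axis was followed through 10 genes in developing mouse liver, all of them among the 21889 gene symbols of the deposited table: the receptors Ghr and Prlr, the transcription factor Stat5b, the feedback inhibitor Socs2, the secreted factor Igf1, its carrier subunit Igfals, and the IGF binding proteins Igfbp1, Igfbp2, Igfbp3 and Igfbp4. The genes were taken by symbol, as a named set of the pathway, and every symbol was found. RNA-Seq had been run on liver of 36 male C57BL/6 mice (C57BL/6J in the study's methods) without any genetic change or drug, with 3 mice at each of 12 ages, and the question addressed is how hepatic gene expression changes from late gestation to adulthood. The ages were GD17.5 (late gestation, labelled as 2 days before birth), birth itself before suckling (Day 0), 3 ages of early suckling (Days 1, 3 and 5), 3 of late suckling (Days 10, 15 and 20) and 4 after weaning (Days 25, 30, 45 and 60). Pups were weaned between Day 20 and Day 25, all mice had free access to chow and water, and the 3 mice of an age were drawn from several litters, so each value belongs to a separate animal. Values are FPKM, fragment counts scaled to the length of the transcript and to the number of mapped reads, so that levels of different genes can be compared.

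Growth hormone from the pituitary binds its receptor on hepatocytes, and the receptor acts through the kinase JAK2 and the transcription factor STAT5B to switch on Igf1, Igfals and Socs2. IGF1 released by the liver circulates in a complex with an IGF binding protein and the acid labile subunit encoded by Igfals, and it feeds back on the pituitary. The liver before birth is also a blood-forming organ, and growth before birth depends mainly on IGF2 and much less on growth hormone.

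Promoter sequences are shown for Igf1, its carrier subunit Igfals, and Igfbp1 and Igfbp2, which had large early peaks, to be read side by side. These 4 genes had wide ranges over age, and 1 window is shown for each. Each runs from 250 bases before to 50 bases after a RefSeq start site in build GRCm38.p6, on the plus strand, written 5′ to 3′. Capitals mark matches, on either strand, to a STAT5 element, an insulin response element, a GC box or a TATA box, spelled out beside their shares after the sequences. In the sequences shown, matches to different patterns did not overlap.
Igf1, chr10:87860861-87861160: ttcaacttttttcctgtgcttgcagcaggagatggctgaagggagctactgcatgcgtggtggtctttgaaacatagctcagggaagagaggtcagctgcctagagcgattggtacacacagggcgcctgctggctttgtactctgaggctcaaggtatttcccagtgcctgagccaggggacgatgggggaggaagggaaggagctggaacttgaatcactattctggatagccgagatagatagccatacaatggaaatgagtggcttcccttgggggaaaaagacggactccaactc
Igfals, chr17:24877981-24878280: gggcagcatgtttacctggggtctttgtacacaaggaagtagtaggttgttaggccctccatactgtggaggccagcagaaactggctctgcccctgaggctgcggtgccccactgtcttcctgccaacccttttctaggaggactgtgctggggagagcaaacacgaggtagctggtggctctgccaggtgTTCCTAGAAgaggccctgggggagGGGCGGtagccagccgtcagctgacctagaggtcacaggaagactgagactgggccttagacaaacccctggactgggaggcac
Igfbp1, chr11:7197537-7197836: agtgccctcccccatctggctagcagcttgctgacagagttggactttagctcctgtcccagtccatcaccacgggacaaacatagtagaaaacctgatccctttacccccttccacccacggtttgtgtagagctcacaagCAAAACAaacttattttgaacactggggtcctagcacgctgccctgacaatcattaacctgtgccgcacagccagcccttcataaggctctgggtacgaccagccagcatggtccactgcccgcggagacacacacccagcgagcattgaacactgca
Igfbp2, chr1:72824230-72824529: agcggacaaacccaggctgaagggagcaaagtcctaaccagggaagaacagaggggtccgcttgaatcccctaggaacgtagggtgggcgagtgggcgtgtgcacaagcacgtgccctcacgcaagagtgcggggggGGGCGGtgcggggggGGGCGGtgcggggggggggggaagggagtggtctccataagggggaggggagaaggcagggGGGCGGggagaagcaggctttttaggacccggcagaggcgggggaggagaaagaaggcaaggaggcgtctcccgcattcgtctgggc
The Igfals window shown held a STAT5 match 58 bases before the start site and a GC box match 34 bases before it. Igfals had other windows among the promoter entries, starting at 24877594 and 24878497. The first held a STAT5 match 236 bases before its start site, and the second held GC box matches but no STAT5 match. The Igfbp1 window held an insulin response match 108 bases before the start site. The Igfbp2 window shown held 3 GC box matches, at 113, 98 and 37 bases before the start site. Another Igfbp2 window, starting at 72825137, held no match to any of the 4 patterns. None of the 4 letter patterns occurred in the Igf1 window, which says only that these letters are not within it. Among all 32851 promoter windows of the same length, 8.3% held the STAT5 pattern, searched as TTCNNNGAA. The insulin response pattern, searched as CAAAACA, was held by 6.28% of all windows. The GC box, searched as GGGCGG, is a common feature of promoters, and 35.7% of all windows held it. The TATA box, searched as TATAAA, was held by 13.6%. Of the 10 genes, 9 had at least 1 window in the table, with 16 windows in all; Igfals and Prlr held the STAT5 pattern in at least 1 of their windows, and Igfbp1 and Prlr the insulin response pattern. A match is a description of the letters and is not evidence that a factor bound there.

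The deposited values carry no fragment counts. From the steps between low values, depth was estimated at about 86.7 fragments per library, in units of 1000000, with relative depths from 0.889 to 1.19, and 64.2% of the low values used were whole fragments within a tolerance of 0.1. Summed FPKM per mouse was from 353712 to 450597, and the 36 pairs of mice of the same age correlated across genes at a median of 0.978 (lowest 0.952). All 8 hepatocyte markers were detected, with a summed level of 5093 to 5827 FPKM at GD17.5, 22067 to 34976 at Days 0 to 5, 45359 to 60415 at Days 10 to 20 and 36603 to 51618 at Days 25 to 60. The 8 erythroid markers summed to 127277 to 185255 FPKM at GD17.5 and to 21486 to 80453 at Days 0 to 5. They summed to 2492 to 18679 FPKM at Days 10 to 20 and to 650 to 5673 at Days 25 to 60. In such bulk samples, fewer cells of a type and less RNA per cell cannot be told apart. This bears on every comparison between these groups of ages, and not only on those with GD17.5. Skeletal muscle markers summed to up to 1126 FPKM at Days 0 to 5, and exocrine pancreas markers to up to 14241 FPKM at Days 25 to 60, so results were also computed without the 6 mice above 1000 FPKM of either list.

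Across the 12 ages, Igf1, Ghr and Igfals rose from GD17.5 to the adult range, Igfbp1 and Igfbp2 had their highest means at Day 3, Igfbp4 at Days 15 and 20, and Stat5b had the narrowest range of means. Of the 10 genes, 9 changed in at least 1 age against Day 60 (limma on log2(FPKM + 1), Benjamini-Hochberg adjusted p under 0.05), and Stat5b did not (adjusted p = 0.18). Among all 11149 genes tested, 90.7% changed in at least 1 age, so the members' count was close to the background.

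**Figure D1:**
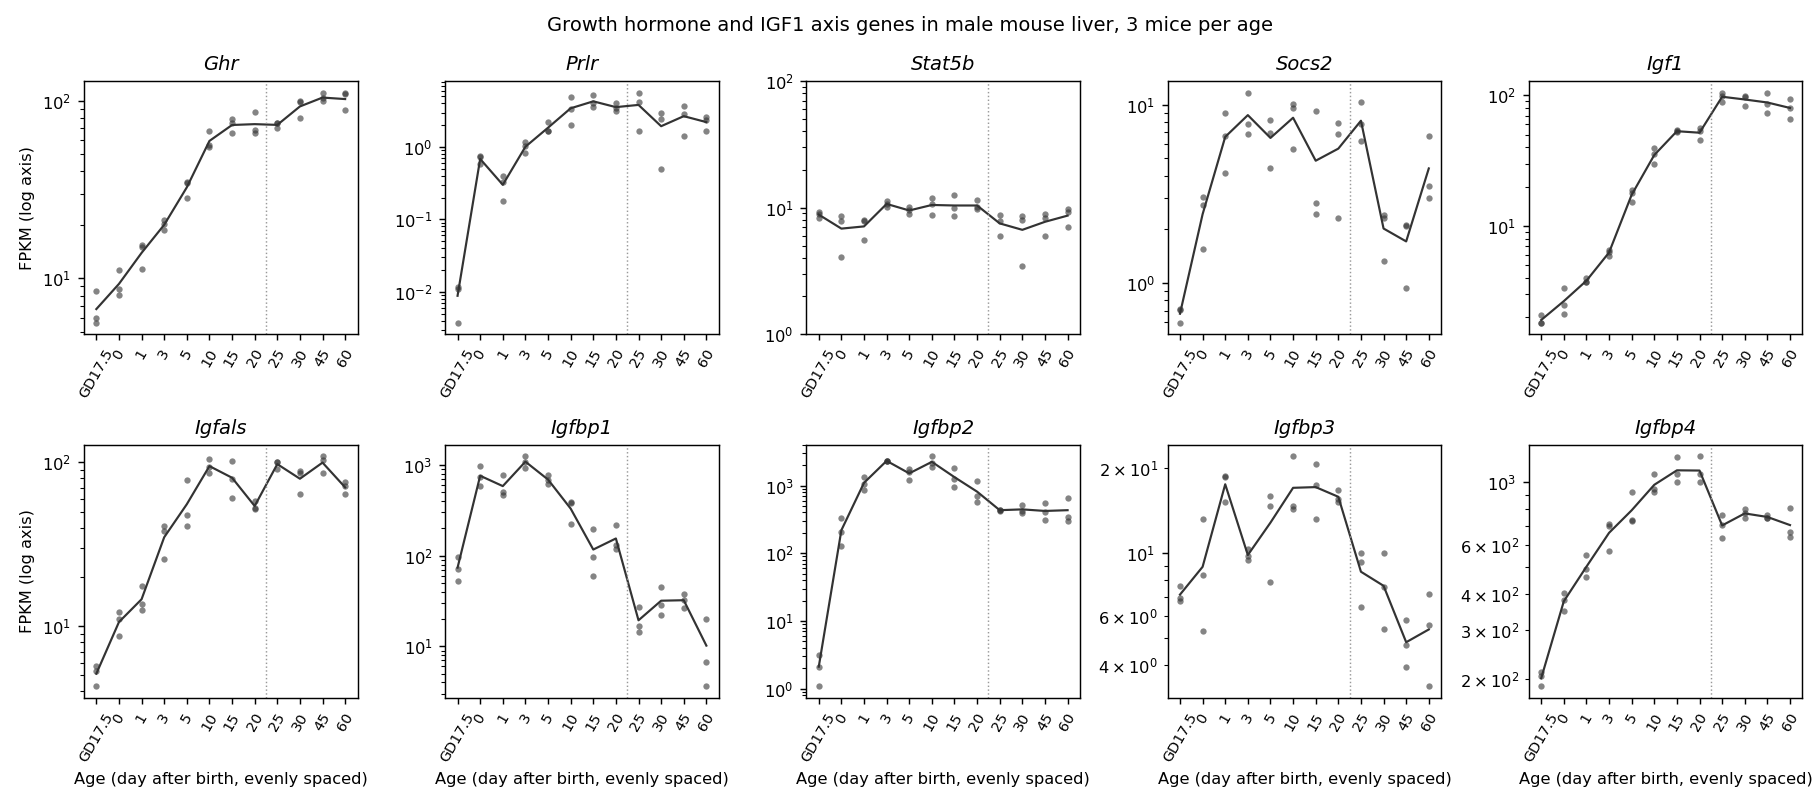
FPKM of each of the 10 genes (log axis, a separate scale in each panel) against age, with the ages evenly spaced, 1 point per mouse and a line through the mean of 3 mice. The dotted line marks weaning between Day 20 and Day 25. Ghr goes from 6.71 FPKM at GD17.5 to 104 at Day 45, and Igf1 from 1.90 at GD17.5 to 97.5 at Day 25 and 88.1 at Day 45. Igfbp1 falls from 1090 FPKM at Day 3 to 10.2 on Day 60, and Stat5b stays between mean values of 6.68 and 10.7 FPKM.

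Ghr, the growth hormone receptor (chr15:3267760-3533492 of NCBI37/mm9, minus strand, a protein-coding gene), rose through the whole perinatal period. At GD17.5 the 3 mice had 8.52, 6.00 and 5.62 FPKM, and at Day 60 they had 110, 109 and 88.6 FPKM, without overlap. The means in between were 9.30 on Day 0, 13.9 on Day 1, 20.0 on Day 3, 32.5 on Day 5, 59.3 on Day 10, 72.9 on Day 15, 73.7 on Day 20, 73.0 on Day 25, 92.7 on Day 30 and 104 ± 5.89 FPKM (SD, n = 3) on Day 45. Ordered by level, the mice of neighbouring ages did not overlap for 4 of 11 neighbours, all of them steps between Day 0 and Day 10, while the means from Day 15 to Day 25 differed by less than the spread between mice. The highest mean was 15.5 times the lowest. Ghr was lower than at Day 60 at all 9 ages up to Day 25 and was not called at Days 30 and 45.

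Prlr, the prolactin receptor, which also signals through JAK2 and STAT5 (chr15:10106993-10303504, plus strand), was at the level of a few fragments at GD17.5. The 3 mice had 0.00374, 0.0111 and 0.0116 FPKM at GD17.5, where a single fragment of this gene corresponds to about 0.00118 FPKM, and 0.576, 0.758 and 0.721 FPKM at Day 0. All 3 newborn livers therefore lay above all 3 fetal livers, but every value was under 1 FPKM and the difference on the log2(FPKM + 1) scale was 0.74 ± 0.29 (SE; limma adjusted p = 0.034). Means rose from 0.301 on Day 1 over 1.01 on Day 3, 1.85 on Day 5 and 3.43 on Day 10 to 4.28 ± 0.807 FPKM (SD, n = 3) on Day 15, and were 3.56 on Day 20, 3.82 on Day 25, 1.94 on Day 30, 2.67 on Day 45 and 2.21 on Day 60. With the ages from Day 10 on ordered by level rather than by time, the mice of neighbouring ages overlapped. All Day 15 mice (5.17, 4.05 and 3.61 FPKM) still lay above all Day 60 mice (1.67, 2.37 and 2.60 FPKM). Prlr was 1 of the more variable members: 1 mouse of Day 30 had 0.491 FPKM against 2.91 and 2.42 in the others, and 1 mouse of Day 25 had 1.66 against 5.66 and 4.16. In both of these low mice, transcript length and deviation from the age mean were negatively correlated across genes (-0.69 and -0.63, among -0.69 to 0.63 over all libraries), and the Prlr transcript is long, at 9900 bases; the part of this in the Prlr values was not tested. Prlr also overlaps Agxt2 on the same strand in the annotation, so fragments of the overlap could be assigned to either gene.

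Stat5b, the transcription factor that carries most of the growth hormone signal in liver (chr11:100642045-100712038, minus strand), varied little with age. Mean FPKM was 8.81 at GD17.5, 6.83 on Day 0, 7.11 on Day 1, 10.7 on Day 3, 9.50 on Day 5, 10.5 on Day 10, 10.4 at Days 15 and 20, 7.51 on Day 25, 6.68 on Day 30, 7.73 on Day 45 and 8.65 on Day 60. The highest mean was 1.61 times the lowest, and the mice of all 11 neighbouring pairs in this order overlapped. The lowest single value, 3.43 FPKM, was in the same Day 30 mouse that was low in Prlr, beside 8.62 and 7.98 FPKM. Between age groups, Stat5b was higher at Days 10 to 20 than at GD17.5 to Day 5 by 0.27 ± 0.12 on the log2 scale (limma adjusted p = 0.0395) and lower at Days 25 to 60 than at Days 10 to 20 by 0.43 ± 0.12 (-0.43, adjusted p = 0.00433); the rise was lost without any 1 of 9 mice, of which leaving out mouse 1 of Day 15 gave the highest adjusted p (0.099). After upper quartile scaling, which gives every library the same upper quartile of FPKM, that rise was 0.71 (adjusted p = 1.98e-07), and Stat5b was then called lower than at Day 60 at GD17.5 (-0.50, adjusted p = 0.0189), Day 0 (-0.63, adjusted p = 0.00431) and Day 1 (-0.68, adjusted p = 0.00277). Stat5b lies 8626 bases from its near-identical paralog Stat5a, and fragments shared by both could be split between them.

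Socs2, a growth hormone target whose product damps signalling from the growth hormone receptor (chr10:94847996-94879814, minus strand), was low before birth and uneven between mice. The GD17.5 mice had 0.702, 0.598 and 0.715 FPKM, the Day 0 mice 3.02, 2.72 and 1.56, and the Day 3 mice 11.7, 6.81 and 7.75. These 3 ages did not overlap. Means were 6.60 on Day 1, 8.74 on Day 3, 6.51 on Day 5, 8.45 on Day 10, 4.85 on Day 15, 5.67 on Day 20, 8.13 on Day 25, 2.02 on Day 30, 1.71 on Day 45 and 4.39 on Day 60. The SD between mice reached 79.2% of the mean at Day 15, where 1 mouse had 9.27 FPKM and the others 2.81 and 2.45. Against Day 60 Socs2 was called lower at GD17.5 (-1.63, limma adjusted p = 0.000242) and higher at Day 3 (0.88, adjusted p = 0.0365), and at no other age. With upper quartile scaling the Day 3 call was lost (0.34, adjusted p = 0.46) and Day 0 was called lower (-0.85, adjusted p = 0.0498). At Days 10 to 20 it was higher than at GD17.5 to Day 5 by 0.43 ± 0.19 (adjusted p = 0.0432), a call that was lost in several fits with 1 mouse left out (highest adjusted p = 0.177, without mouse 1 of Day 15) and was 0.78 with upper quartile scaling (adjusted p = 0.000839). No Socs2 window was among the promoter entries.

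Igf1, the circulating growth factor that hepatocytes secrete in response to growth hormone (chr10:87321010-87399792, plus strand), had a higher mean at each age up to Day 15 than at the age before, and rose again across weaning. The 3 mice had 1.81, 2.08 and 1.81 FPKM at GD17.5, 3.33, 2.11 and 2.49 on Day 0, 15.1, 18 and 18.8 on Day 5 and 52.1, 53.3 and 53.9 on Day 15. At Day 20 they had 45.6, 56.2 and 53.3 FPKM, and at Day 25 they had 98.7, 105 and 89.0, so that the lowest mouse after weaning lay above the highest mouse before it. The other means were 3.80 on Day 1, 6.25 on Day 3, 34.9 on Day 10, 92.9 on Day 30, 88.1 on Day 45 and 80.0 ± 13.8 FPKM (SD, n = 3) on Day 60. Of 11 neighbouring ages in the order of levels, 7 did not overlap, the most of any member, and the 4 ages from Day 25 on overlapped. The highest mean, 97.5 FPKM at Day 25, was 51.4 times the lowest. The rise from Day 20 to Day 25 was 0.91 ± 0.14 on the log2 scale (limma adjusted p = 3.86e-05), and Igf1 was lower than at Day 60 at the 8 ages up to Day 20 and was not called at Days 25, 30 and 45. In the annotation Igf1 overlaps the processed transcript Gm16176 on the opposite strand, and the strand of fragments was not stated to be used.

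Igf2, the growth factor of the fetus and not itself a member, stayed high through Day 10 and was then lost. The 3 mice had 248, 231 and 147 FPKM of Igf2 at GD17.5, with means of 216 on Day 0, 427 on Day 1, 368 on Day 3, 306 on Day 5 and 396 on Day 10. Neither the step to Day 0 (0.08 ± 0.38 on the log2 scale) nor that to Day 1 (0.96 ± 0.38, limma adjusted p = 0.0532) passed the test. The mice had 301, 103 and 48.2 on Day 15, 7.23, 5.62 and 6.36 on Day 20 and 1.03, 0.131 and 0.172 on Day 25. Days 15, 20 and 25 did not overlap. Igf1 made up 0.945% ± 0.253 (SD, n = 3) of the summed Igf1 and Igf2 FPKM at GD17.5, 0.912% ± 0.192 on Day 1, 8.57% ± 1.87 on Day 10, 33.9% ± 19 on Day 15, 88.9% ± 2.33 on Day 20 and 99.5% ± 0.508 on Day 25. The exchange of the transcripts was thus largely complete at Day 20, before weaning, and the wide SD at Day 15 came from the 3 Igf2 values.

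**Figure D2:**
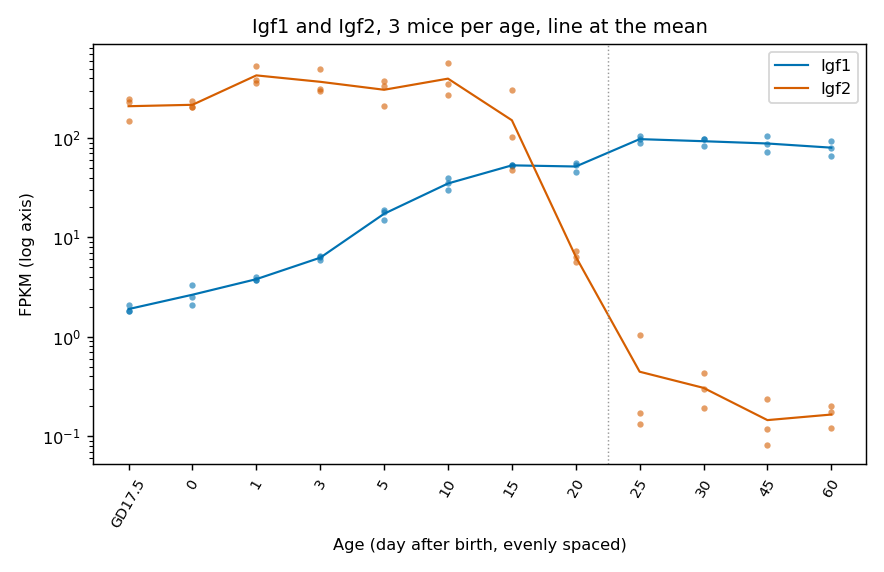
FPKM of Igf1 and Igf2 (log axis) against age, with the ages evenly spaced, 1 point per mouse, a line through the mean of 3 mice and a dotted line at weaning. The lines cross between Day 15, with means of 53.1 FPKM for Igf1 and 151 for Igf2, and Day 20, with means of 51.7 and 6.40.

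Igfals, which encodes the acid labile subunit that holds IGF1 in its long-lived circulating complex (chr17:25014600-25018955, plus strand), rose up to Day 10 and then moved up and down. The GD17.5 mice had 4.29, 5.74 and 5.35 FPKM, the Day 0 mice 8.66, 11 and 12.2, and the Day 10 mice 93.5, 105 and 85.5, without overlap. The means were 14.6 on Day 1, 34.9 on Day 3, 55.5 on Day 5, 80.5 on Day 15, 54.1 on Day 20, 97.5 on Day 25, 79.4 on Day 30, 99.6 on Day 45 and 70.3 FPKM at Day 60. Day 20 was low, with 51.9, 52.7 and 57.8 FPKM, and all 3 Day 25 mice, with 91.1, 101 and 100 FPKM, lay above it. That step was 0.84 ± 0.20 on the log2 scale (limma adjusted p = 0.00791). Igfals was below its Day 60 level at the 4 ages up to Day 3, and with upper quartile scaling also at Day 5 (-1.01, adjusted p = 5.25e-05, beside -0.39 and 0.0947 as deposited), whereas Igf1 was below its Day 60 level up to Day 20 on either scale; the difference in timing itself was not tested.

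Igfbp1, a binding protein of which insulin is known to suppress the transcription in hepatocytes (chr11:7097785-7102549, plus strand), surged at birth and was nearly lost after weaning. The 3 mice had 72, 53.0 and 96.6 FPKM at GD17.5 and 967, 583 and 735 on Day 0, without overlap. Day 3 had the highest level, with 1253, 1093 and 923 FPKM, and Day 60 the lowest, with 3.62, 6.73 and 20.1. Means were 586 on Day 1, 692 on Day 5, 331 on Day 10, 117 on Day 15, 155 on Day 20, 19.4 on Day 25, 31.9 on Day 30 and 32.3 FPKM at Day 45. The highest mean was 107 times the lowest. Across weaning the values fell from 131, 119 and 217 FPKM at Day 20 to 27, 14.3 and 16.8 on Day 25, a difference of -2.94 ± 0.41 on the log2 scale (limma adjusted p = 8.34e-06). Igfbp1 was higher than at Day 60 at 10 of the 11 other ages, including Day 30 (1.80, adjusted p = 0.00896) and Day 45 (1.86, adjusted p = 0.042), with Day 25 the exception; 1 Day 60 mouse, with 20.1 FPKM, lay within the Day 25 range.

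Other genes that insulin is known to suppress were read beside Igfbp1. Pck1, an enzyme of gluconeogenesis, had 0.136, 0.338 and 0.204 FPKM at GD17.5 and 293, 4.37 and 32.4 on Day 0, and G6pc, which releases free glucose, had 0.0366, 0.0381 and 0.0451 and then 226, 42.4 and 59.8. Both rose at birth (4.94 ± 0.70 and 6.34 ± 0.42 on the log2 scale, limma adjusted p = 1.73e-06 and 8.26e-13), as did Pdk4, a kinase that restrains glucose oxidation (1.40 ± 0.30, adjusted p = 0.000286), while Irs2 did not pass the test (0.28 ± 0.41). From Day 20 to Day 25 Pck1 fell by 2.50 on the log2 scale (-2.50 ± 0.70, adjusted p = 0.0255), from 441, 568 and 571 FPKM to 120, 54.9 and 117. G6pc (-0.46), Irs2 (-0.73) and Pdk4 (-0.08) did not pass the test at that step. Of the 4 genes, 3 thus rose at birth, where 13.1% of all genes and 7 of 8 hepatocyte markers rose, and 1 fell at weaning, where 3.26% of all genes and none of the hepatocyte markers fell.

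Igfbp2, the binding protein with the highest peak of the 4 (chr1:72871077-72899048, plus strand), had the widest range. The 3 mice had 1.08, 2.06 and 3.18 FPKM at GD17.5, 326, 127 and 205 on Day 0, 871, 1067 and 1347 on Day 1 and 2285, 2319 and 2334 on Day 3. These 4 ages did not overlap. Means were 1511 on Day 5, 2235 on Day 10, 1328 on Day 15 and 811 on Day 20, and then 432 on Day 25, 444 on Day 30, 421 on Day 45 and 432 FPKM at Day 60, which could not be ordered. The mean at Day 0 was 104 times that at GD17.5, and the mean at Day 3 was 1097 times it. Hepatocyte markers rose at the same step by amounts from 0.81 ± 0.28 for Hnf4a to 5.54 ± 0.22 for Asgr1 on the log2 scale, apart from Apob, which did not pass (-0.12 ± 0.66). Asgr1, a receptor of the hepatocyte surface, went from a mean of 2.29 FPKM at GD17.5 to 188, 115 and 148 FPKM in the Day 0 mice, beside the rise of 6.10 ± 0.32 for Igfbp2. The part of hepatocyte content in the Igfbp2 rise was not tested. Between Days 20 and 25 the difference of -0.84 ± 0.32 did not pass the test (limma adjusted p = 0.117), although Igfbp2 at Days 25 to 60 was lower than at Days 10 to 20 (-1.62 ± 0.17, adjusted p = 4.97e-09).

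Igfbp3, the main carrier of IGF1 in plasma (chr11:7106089-7113926, minus strand, 3539 bases from Igfbp1), was the least abundant of the 4 binding proteins after birth. At Day 1, with the highest mean, the mice had 18.6, 18.7 and 15.2 FPKM. Its other means were 7.12 FPKM at GD17.5, 8.93 on Day 0, 9.83 on Day 3, 12.8 on Day 5, 17 on Day 10, 17.1 on Day 15, 15.8 on Day 20, 8.58 on Day 25, 7.65 on Day 30, 4.83 on Day 45 and 5.36 on Day 60. With the ages ordered by level rather than by time, the mice of all 11 neighbouring pairs overlapped, although the Day 1 values were all above those of 3.37, 5.57 and 7.14 on Day 60. Igfbp3 was higher than at Day 60 at the 7 ages from Day 0 to Day 20. With upper quartile scaling 3 of these calls were lost, at Day 0 (0.32, adjusted p = 0.236), Day 3 (0.26, adjusted p = 0.361) and Day 5 (0.55, adjusted p = 0.0524), beside 0.61, 0.81 and 1.11 as deposited. In the liver Igfbp3 is known to be made outside hepatocytes. At Days 25 to 60 against Days 10 to 20 Igfbp3 fell (-1.25 ± 0.14, limma adjusted p = 1.62e-08). There 4 of 6 Kupffer cell, 5 of 6 sinusoidal endothelial and 6 of 6 stellate and fibroblast markers fell and none rose, where 44.9% of all genes fell. With upper quartile scaling 3, 5 and 6 of these markers fell, where 37.3% of all genes fell. The summed levels of these lists ranged at Days 10 to 20 from 57.5 to 153, from 69.6 to 99.1 and from 72.4 to 171 FPKM, and at Days 25 to 60 from 56.0 to 120, from 59.3 to 72.4 and from 18.2 to 49.5 FPKM. Their part in the fall of Igfbp3 was not tested.

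Igfbp4, a binding protein that mainly restrains IGF action (chr11:98902558-98913969, plus strand), was high at all ages and the least variable member between mice of the same age (residual SD of 0.14 on the log2 scale). The 3 mice had 189, 206 and 212 FPKM at GD17.5, 995, 1062 and 1232 on Day 20 and 635, 766 and 702 on Day 25, and these ages did not overlap. Means were 378 on Day 0, 501 on Day 1, 660 on Day 3, 793 on Day 5, 976 on Day 10, 1098 on Day 15, 773 on Day 30, 751 on Day 45 and 703 FPKM at Day 60. The highest mean was 5.42 times the lowest. At weaning Igfbp4 fell by 0.64 on the log2 scale (-0.64 ± 0.12, limma adjusted p = 0.000613).

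The make-up of the binding protein transcripts changed with age. The 4 genes together summed to 286 ± 28.6 FPKM (SD, n = 3) at GD17.5, of which Igfbp4 made up 71.2% ± 5.26, and to 1368 ± 311 FPKM at Day 0, of which Igfbp1 made up 55.5% ± 1.57. From Day 1 to Day 15 Igfbp2 had the largest mean share, from 49.6% at Day 1 to 62.6% at Day 10, and the sum reached 4072 ± 82.2 FPKM at Day 3. From Day 20 on Igfbp4 again had the largest mean share, 53.7% ± 5.95 on Day 20 and 60.3% to 62.6% at Days 25 to 60, while the sum was down to 1161 ± 66.1 FPKM at Day 25 and 1151 ± 296 on Day 60. Averaged over age means, the share of Igfbp1 was 31.6% at GD17.5 to Day 5 and 1.94% at Days 25 to 60 (two-sided exact permutation test over 5 and 4 age means, p = 0.0159 and 0.0635 after adjustment over the 4 shares). The share of Igfbp4 was 33% and 61.7% (exact p = 0.0794), that of Igfbp2 34.5% and 35.8% (exact p = 0.905), and that of Igfbp3 0.925% and 0.556% (exact p = 0.635). The mean share of Igfbp1 was at least 23.3% at each early age and at most 2.71% at each late age. Its p was the smallest that 126 splits allow, and a single share at that p cannot pass after adjustment over 4, so the shares are descriptions and the test says nothing for or against them. Igf1 was 0.154% ± 0.0108 of the summed binding proteins at Day 3 and 8.41% ± 0.715 on Day 25.

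**Figure D3:**
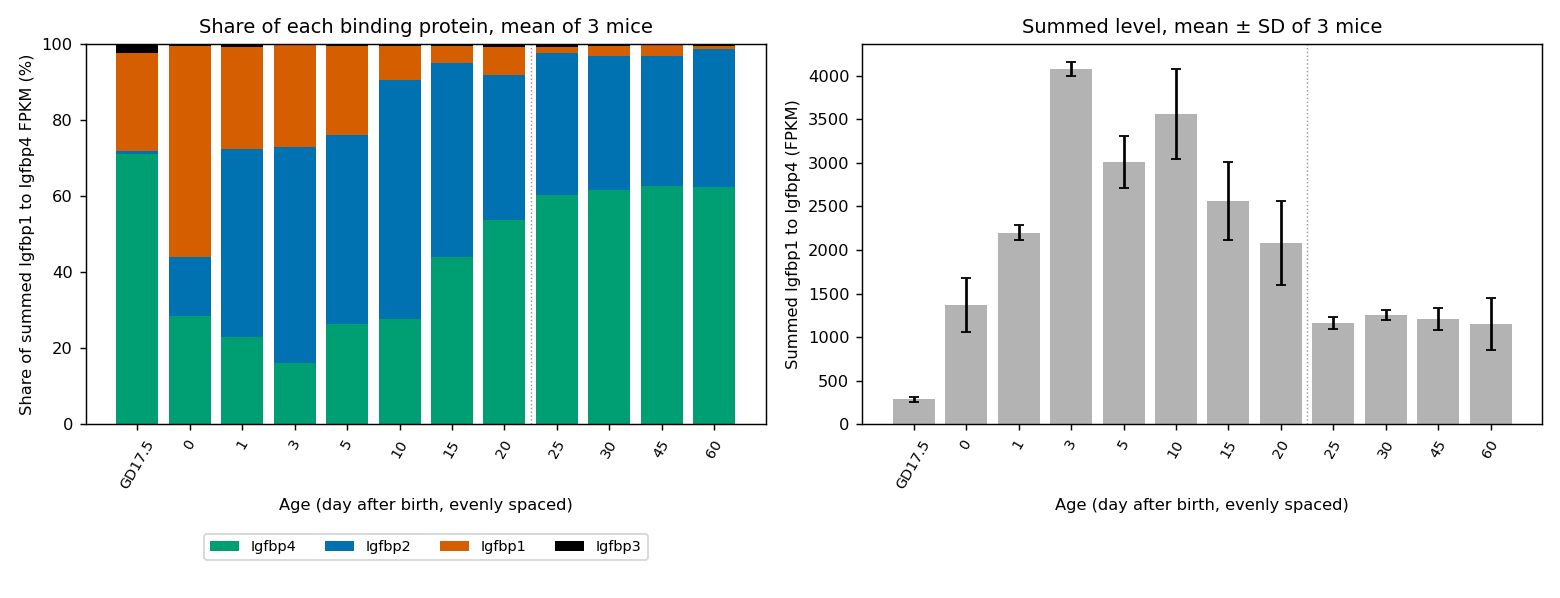
Left, the share of each binding protein in the summed FPKM of Igfbp1 to Igfbp4 (percent, mean of 3 mice) at each age. Right, that sum in FPKM (mean, error bars SD of 3 mice). The ages are evenly spaced and the dotted line marks weaning. Igfbp4 leads at GD17.5 with 71.2%, Igfbp1 on Day 0 with 55.5%, Igfbp2 from Day 1 to Day 15, and Igfbp4 again from Day 20, while the sum is highest at Day 3.

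Against Day 60, most members were called up to Day 20 except at Day 5, while the share of all genes called went down from Day 5 on. At GD17.5 8 members were called (background 75.1% of all genes tested), 1 higher and 7 lower. Also 8 were called at Day 0 (background 63.9%), at Day 1 (65.0%) and at Day 3 (66.0%), and 5 on Day 5 (65.4%). At Day 10 (46.0%), Day 15 (27.4%) and Day 20 (15.9%) 6 members were called, 4 higher and 2 lower each time. At Day 25 (7.42%) only Ghr was called, and at Day 30 (3.56%) and Day 45 (0.233%) only Igfbp1. Together 58 of 110 comparisons with Day 60 passed. Scaling all libraries to a common upper quartile moved the split of all genes at GD17.5 from 56.4% higher and 18.6% lower to 40.7% and 29%, and that of the members to 1 higher and 8 lower. At Day 0 it moved from 43.6% and 20.3% to 35.6% and 29.7% with 1 member higher and 8 lower, at Day 1 from 53.4% and 11.7% to 36.3% and 21.7% with 3 and 6, at Day 3 from 55.7% and 10.3% to 34.2% and 23.3% with 2 and 5, at Day 5 from 56.9% and 8.50% to 33.3% and 21% with 2 and 4, and at Day 10 from 35.3% and 10.6% to 30.1% and 15.6% with 3 and 2. At Day 25 the scaling called Igfbp1 (1.21, adjusted p = 0.0497) in place of Ghr (-0.38, adjusted p = 0.0935).

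From the perinatal group to late suckling, members moved mostly upward. At Days 10 to 20 against GD17.5 to Day 5 all 10 passed the test (background 75.8%), 9 of them higher (background 14.6%) and only Igfbp1 lower (61.2%). Without 1 mouse at a time this count ranged from 8 to 10, as Stat5b and Socs2 lost their calls in some fits. The median difference was 1.35 on the log2 scale among the members and -0.35 among all genes. In the same comparison 6 of 8 hepatocyte markers were higher and none lower, with a median of 1.34, close to that of the members, and 8 of 8 erythroid markers were lower, with a median of -3.92; their part in the members' differences was not tested. The difference was 3.00 ± 0.07 for Igf1, 2.18 ± 0.08 for Ghr, 2.13 ± 0.16 for Igfbp2 and 2.03 ± 0.10 for Igfals, and Igfbp1 fell by 1.45 (-1.45 ± 0.21). For Igfbp2 the value rests on GD17.5 and Day 0, which were both called below Day 60 (-7.10 at GD17.5, with Day 0 at an adjusted p of 0.00756 in limma), since Days 1, 3 and 5 were above it (1.40, 2.50 and 1.87) as were Days 10, 15 and 20 (2.44, 1.65 and 0.92). With upper quartile scaling, which moved the split of all genes to 31.7% higher and 35.2% lower and their median to -0.02, again 9 members were higher and 1 lower.

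At Days 25 to 60 against Days 10 to 20, 9 members passed (background 57.3%), 2 of them higher (12.4%) and 7 lower (44.9%). Igf1 (0.94 ± 0.08) and Ghr (0.43 ± 0.08) rose further, all 4 binding proteins, Prlr (-0.45 ± 0.16), Stat5b and Socs2 (-0.60 ± 0.20) fell, and Igfals did not pass (0.21 ± 0.11, limma adjusted p = 0.107). Igfbp1 had the largest fall (-3.05 ± 0.22). Prlr lost its call without mouse 1 of Day 10 (-0.37, adjusted p = 0.0546). With upper quartile scaling, where the split of all genes was 18.6% higher and 37.3% lower, Igfals also passed (0.35, adjusted p = 0.00486).

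From the perinatal group (GD17.5 to Day 5) to the group of Days 25 to 60, 8 members changed (background 85.7%), 6 of them higher (15.5%) and 2 lower (70.2%). Igf1 was higher by 3.95 ± 0.07 on the log2 scale (limma adjusted p = 1.2e-28), Ghr by 2.61 ± 0.07, Igfals by 2.24 ± 0.10, Prlr by 1.05 ± 0.14, Igfbp4 by 0.68 ± 0.06 and Igfbp2 by 0.51 ± 0.15, and Igfbp1 was lower (-4.50 ± 0.19). The higher value of Igfbp2 again rests on GD17.5 and Day 0, as its means at Days 1, 3 and 5 exceeded those at Days 25 to 60. The scaling matters here, because the median of all genes was -0.54 with FPKM as deposited and -0.14 with upper quartile scaling, and the split of all genes went to 32% higher and 46.9% lower. With that scaling Igfbp4 was higher by 1.32 and Igfbp2 by 1.11. Igfbp3 was lower at -0.66 ± 0.12 (adjusted p = 1.9e-05), near that median, and at -0.09 (adjusted p = 0.45) under the other scaling. Stat5b had -0.16 ± 0.11 (adjusted p = 0.181) and then 0.41 (adjusted p = 0.000151), and Socs2 -0.17 ± 0.17 (adjusted p = 0.359) and then 0.29 (adjusted p = 0.135), so no direction can be given for Stat5b and Socs2 between the youngest and the oldest group.

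**Figure D4:**
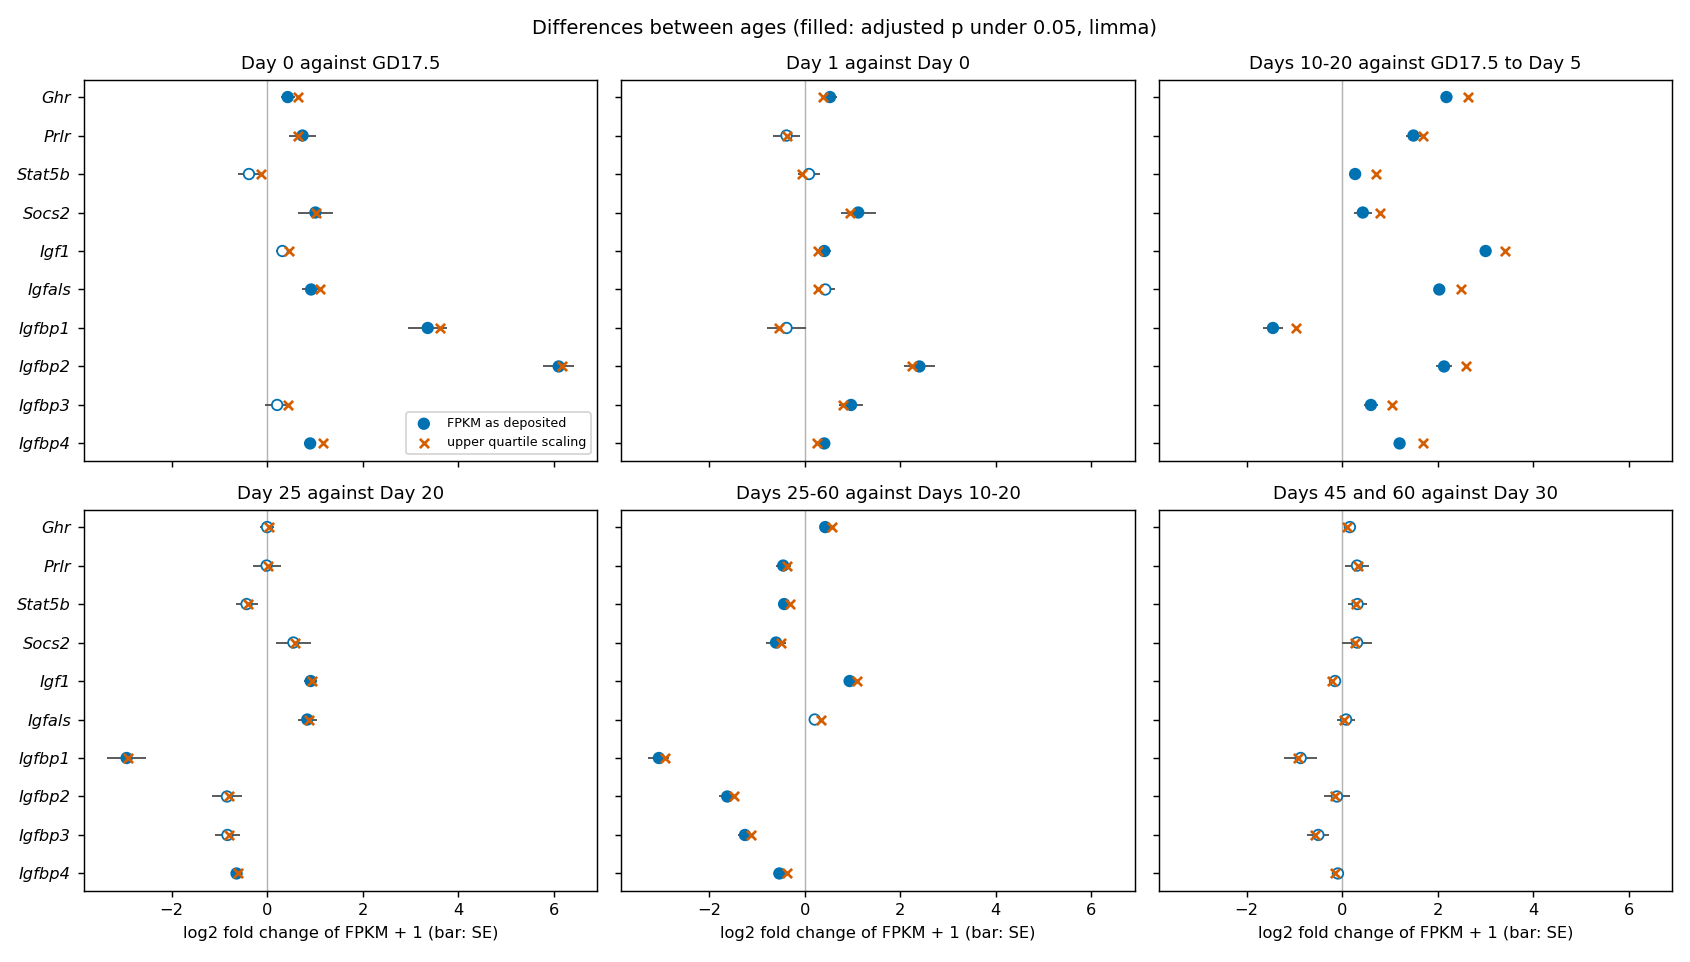
Log2 fold change of FPKM + 1 (points, bars show the SE) of the 10 genes in 6 comparisons between ages. Filled circles passed an adjusted p of 0.05 in limma, open circles did not, and crosses give the value after upper quartile scaling. Igfbp2 and Igfbp1 stand furthest to the right at birth (6.10 and 3.36), and Igfbp1 furthest to the left at weaning (-2.94), while no gene is filled in the last panel.

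At birth, Day 0 against GD17.5, 7 members rose (background 54.6% of all genes changed). Igfbp2 rose by 6.10 ± 0.32 (limma adjusted p = 4.76e-15), Igfbp1 by 3.36 ± 0.41 (adjusted p = 1.4e-07), Socs2 by 1.01 ± 0.37, Igfals by 0.92 ± 0.20, Igfbp4 by 0.90 ± 0.12, Prlr by 0.74 ± 0.29 and Ghr by 0.43 ± 0.15. Igf1 (0.32 ± 0.14, adjusted p = 0.0553), Igfbp3 (0.21) and Stat5b (-0.38) did not pass; Igf1 passed under several alternatives, among them a pseudocount of 0.1 (0.44, adjusted p = 0.0184). All genes split into 13.1% higher and 41.4% lower, or 20.0% and 26.1% with upper quartile scaling, where also 7 members rose and none fell, with Igf1 among them (0.46, adjusted p = 0.00937) and without Prlr (0.65, adjusted p = 0.051). Over the same step 7 of 8 hepatocyte markers rose, with a median of 2.67 over all 8, and 8 of 8 erythroid markers fell. The part of these markers' cell types in the members' rise was not tested. The calls of Igfbp1, Igfbp2, Igfals and Igfbp4 remained without the 6 mice rich in muscle or pancreas markers, which leaves a lone Day 0 mouse assumed to vary like the rest, and those of Ghr, Prlr and Socs2 did not. The count also fell to 4 without mouse 2 of GD17.5 or mouse 1 of Day 0. Prlr lost its call without any 1 of the 6 mice of these ages (adjusted p from 0.0501 to 0.0779), Ghr without mouse 2 or 3 of GD17.5 or mouse 1 of Day 0 (adjusted p up to 0.12), and Socs2 without mouse 2 of GD17.5 or mouse 1 or 2 of Day 0 (adjusted p up to 0.0779).

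Over the first day of suckling, Day 1 against Day 0, 6 members rose (background 31.6%): Igfbp2 by 2.40 ± 0.32 (limma adjusted p = 1.68e-06), Socs2 by 1.12 ± 0.37, Igfbp3 by 0.97 ± 0.26, Ghr by 0.53 ± 0.15, Igf1 by 0.41 ± 0.14 and Igfbp4 by 0.41 ± 0.12. None fell. With upper quartile scaling, which moved the split of all genes from 23.7% higher and 7.88% lower to 14.6% and 12.1%, 3 of these passed, Ghr, Igfbp2 and Igfbp3. The count was 2 without mouse 3 of Day 0, 3 without mouse 2 of Day 1, and 3 without the 6 mice rich in muscle or pancreas markers. Igfbp2 passed in every fit with 1 mouse left out. Leaving out those 6 mice left mouse 2 alone at Day 0, so that fit rests on 1 animal there. Mouse 2 had the lowest Igfbp2 of that age (127 FPKM beside 326 and 205), and the difference of Igfbp2 was then 3.08 on the log2 scale. Each of the other 5 genes lost its call without mouse 3 of Day 0, except Igfbp4, which lost it without mouse 2 of Day 0 or mouse 2 of Day 1. Over the same step 8 of 8 erythroid markers fell, with a median of -1.05, as did 4 of 6 neutrophil and myeloid progenitor markers. Of 6 Kupffer cell markers 5 rose, and of 8 hepatocyte markers 1 rose and 1 fell. The part of these cell types in the members' rise was not tested.

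Across weaning, Day 25 against Day 20, 4 members changed (background 7.19%): Igf1 and Igfals rose, and Igfbp1 and Igfbp4 fell. Ghr had a difference of -0.00 ± 0.15 and Prlr of -0.01 ± 0.29, Stat5b of -0.43 ± 0.23 and Socs2 of 0.55 ± 0.37, and none of them passed. Igfbp3 was just outside the threshold (-0.83 ± 0.26, limma adjusted p = 0.051) and passed with upper quartile scaling (adjusted p = 0.0281). None of the 8 hepatocyte markers changed at this step.

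Over sexual maturation, when growth hormone release of male mice is known to become pulsatile, none of the 10 genes passed the test at Days 45 and 60 against Day 30 (background 3.12%; smallest limma adjusted p = 0.231). At an unadjusted p under 0.05 there were 2, Igfbp1 (-0.87 ± 0.35) and Igfbp3 (-0.50 ± 0.23), and with upper quartile scaling again 0 passed the adjusted threshold. Without mouse 3 of Day 60, the one with 20.1 FPKM of Igfbp1, Igfbp1 passed (-1.17). Genes whose sex-biased level in liver is known to depend on growth hormone and STAT5B did move over the same ages: of 11 male-biased genes 4 rose and none fell (background 1.10% of all genes higher), and of 10 female-biased genes tested 2 fell and none rose (background 2.02% lower). Mup20, a major urinary protein, rose by 2.22 ± 0.21 (adjusted p = 2.6e-08), from 221, 176 and 118 FPKM at Day 30 to 2668, 1679 and 1038 on Day 60. The fatty acid hydroxylases Cyp4a12b (1.47 ± 0.22) and Cyp4a12a (1.12 ± 0.23) rose as well, and the female-biased Cyp2b9 (-1.44 ± 0.25) and Cyp3a44 (-0.95 ± 0.23) fell. Members of these cytochrome P450 and Mup families are near-identical in sequence, so fragments could be split between copies.

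**Figure D5:**
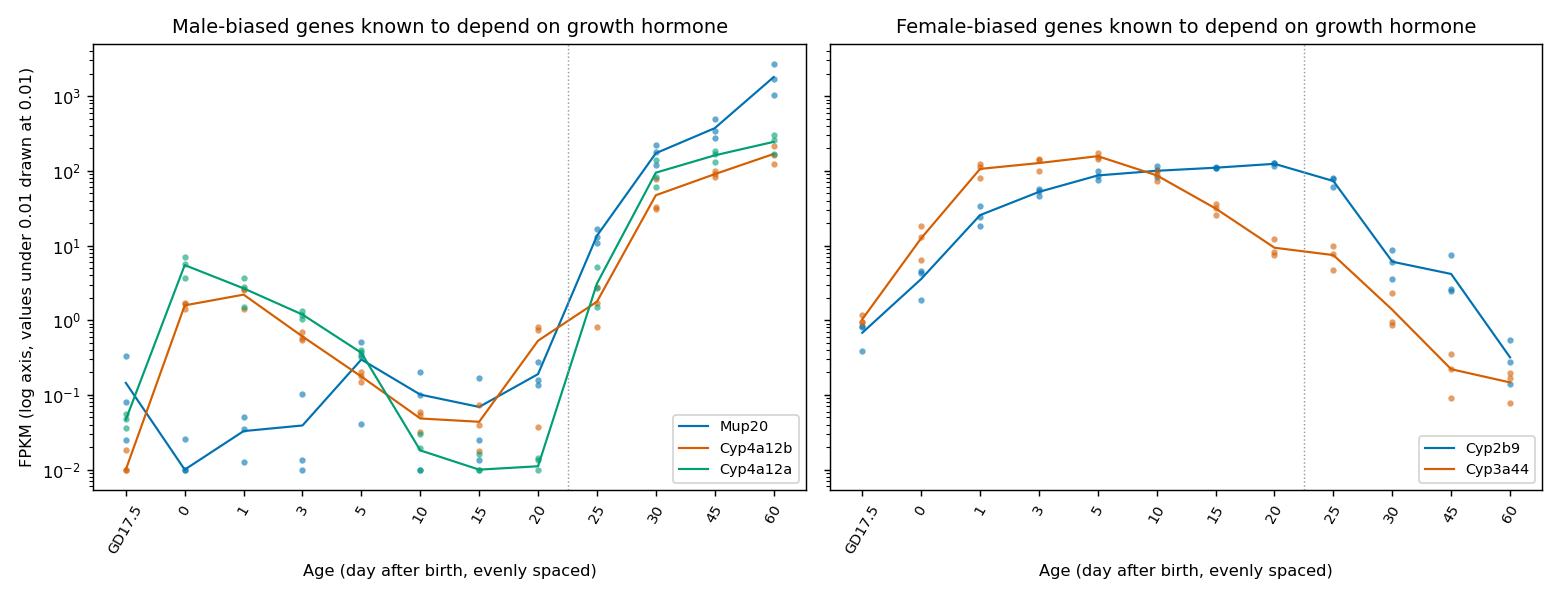
FPKM (log axis, values under 0.01 drawn at 0.01) against age, evenly spaced, of the 3 male-biased and 2 female-biased genes named for Days 45 and 60 against Day 30, with 1 point per mouse and lines through the means of 3 mice. The dotted line marks weaning. The mean of Mup20 goes from 13.5 FPKM at Day 25 over 172 on Day 30 to 1795 on Day 60, and that of Cyp2b9 from 73.0 on Day 25 over 6.07 on Day 30 to 0.318 on Day 60.

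Against Day 60, the 11 male-biased genes had median log2 differences of -4.87 at Day 20, -3.64 at Day 25 and -0.55 at Day 30. The medians of the 10 female-biased genes tested were 1.52, 2.88 and 0.50 at these ages. In these medians most of the difference from Day 60 was gone by Day 30, although Mup20 still rose afterwards. At Days 25 to 60 against Days 10 to 20 all 11 male-biased genes rose, with a median of 3.97 on the log2 scale beside -0.19 for all genes, and of 10 female-biased genes 7 fell and 3 rose. The 3 that rose were A1bg, a plasma protein, with means of 0.191 FPKM at Day 20, 39.8 on Day 25 and 0.586 on Day 30, and the cytochrome P450 genes Cyp2a4 (6.69, 44.1 and 15.6 FPKM) and Cyp17a1 (9.58, 41.7 and 7.78 FPKM), named after their values were seen; each had its highest mean at Day 25. Ghr, Igf1 and Igfals had by then reached means of 73.0, 97.5 and 97.5 FPKM at Day 25, when Mup20 had 13.5 FPKM and Cyp2b9 still 73.0.

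Other genes of the axis, 34 in a list of ligands, receptors, signalling proteins, inhibitors, further binding proteins, proteases and regulators, mostly fell. Of the 28 with enough signal to be tested, 20 were lower and 4 higher at Days 25 to 60 than at GD17.5 to Day 5, with a median of -0.60 beside -0.54 for all genes. With upper quartile scaling 10 were lower and 5 higher, with a median of -0.12 beside -0.14, so the list as a whole moved as all genes did. The genes not tested were the pituitary hormones Gh and Prl and the protease genes and inhibitors Pappa, Pappa2, Stc1 and Stc2; Prl was listed at 0 at every age and Gh had means of at most 0.0727 FPKM.

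By role, Igf2 was the ligand tested and fell by 7.86 on the log2 scale (-7.86 ± 0.18). Of the 3 receptors, Igf2r, which clears IGF2, was lower (-1.01 ± 0.12), as was Igf1r, the receptor through which both growth factors signal (-0.71 ± 0.05; means of 1.03 FPKM at GD17.5 and 0.0492 on Day 60), and Insr did not pass (-0.29). Of 9 signalling genes 8 were lower, led by Irs2 (-1.59 ± 0.19), Jak2, the kinase bound to the growth hormone receptor (-0.85 ± 0.13), and the adaptor Grb2 (-0.84 ± 0.06), where 70.2% of all genes were lower; with upper quartile scaling 3 of the 9 were lower and their median went from -0.61 to -0.06. Of 9 inhibitors and phosphatases 7 were lower, led by Grb10, an imprinted brake on IGF and insulin signalling (-4.56 ± 0.13; means of 39.5 FPKM at GD17.5 and 0.316 on Day 60), Ptpn6, a phosphatase mainly of blood cells (-1.41 ± 0.07), and Ptpn1 (-1.34 ± 0.09), and 1 was higher; with upper quartile scaling 4 were lower and 1 higher. Igfbp5 (-0.68 ± 0.18) and Igfbp6 (-0.47 ± 0.12) were lower with FPKM as deposited and did not pass with upper quartile scaling (-0.30 and -0.11). The higher ones included Bcl6, a repressor that competes with STAT5 (0.89 ± 0.20), Onecut1, a hepatocyte transcription factor (0.54 ± 0.16), and Htra1, a protease of binding proteins (0.34 ± 0.06).

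Over the 12 age means, on the log2 scale, Ghr and Igf1 were the closest pair of members (Pearson's r = 0.986), followed by Ghr and Igfals (0.946) and Igf1 and Igfals (0.927), while Igf1 and Igfbp1 had r = -0.694 and Stat5b and Igf1 r = 0.023. These are descriptions over ages that share the same libraries. Among all genes tested, the 5 most like Igf1 were Inmt (0.993), C4bp (0.991), 6430573F11Rik (0.989), Ces1b (0.987) and Gstk1 (0.987), each lowest at GD17.5 and highest at Day 25 or Day 30. The 5 most like Igfbp1 were Rilpl1 (0.963), BC013712 (0.960), Akr1b7 (0.958), Osbpl5 (0.957) and Spsb1 (0.954), each highest at Day 3 or Day 5 and lowest at Day 45. The highest means of Rilpl1, Osbpl5 and Spsb1 were 1.97, 1.98 and 1.13 FPKM, near the limit of 1 FPKM for testing. That of 6430573F11Rik was 1.22 FPKM, while BC013712 and Akr1b7 reached 4.69 and 160 FPKM. The 5 most like Igfbp2 were Kng2 (0.990), Ccbl2 (0.985), Serpina3n (0.982), Echdc2 (0.978) and Kng1 (0.976), each highest at Day 3 or Day 10 and lowest at GD17.5.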

How the data were processed

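Libraries of polyadenylated liver RNA had been sequenced as paired ends. The authors mapped the reads to NCBI37/mm9 with TopHat 1.2.0, estimated abundances with Cufflinks 1.0.3 (versions from the submitters' processing notes), compared the transcripts with an Ensembl annotation and deposited FPKM per gene symbol. These values were transformed to log2(FPKM + 1), so fold changes understate those of low genes. The 11149 genes whose mean reached 1 FPKM at some age were fitted with limma (version 3.58.1, R 4.3.3), all 36 mice together with a mean for each age and no covariate, with moderated variances that follow mean expression, and p-values were adjusted by Benjamini-Hochberg over all genes tested at a threshold of 0.05; for a change in at least 1 age, over all comparisons with Day 60 together. Groups of ages were compared as differences of unweighted averages of age means. P-values from limma rest on the spread between mice of the same age, and those of the permutation test on splits of the age means. Shares and figures were made in Python 3.11.15 (pandas 2.3.3, scipy 1.17.1, numpy 2.4.6; matplotlib 3.10.9). The members and lists were chosen with earlier results of these data known. All members were named with every age mean; of each role in the wider list, up to 3 genes, and of each sex-biased list up to 3, with the largest change and an adjusted p under 0.05. On simulated data of 11149 genes with 200 changed, 100% were recovered for Days 25 to 60 against GD17.5 to Day 5 with 5.66% of calls false, and 93% for Day 25 against Day 20 (99% of 4-fold and 87% of 2-fold changes) with 3.63% false. The simulated noise was independent between genes, without shared deviations such as the trend with transcript length. In the real data 85.7% of genes were called in the first of these comparisons. The simulated rates therefore need not hold for the real data. Gene positions are from GENCODE on NCBI37/mm9, and promoter sequences from RefSeq on GRCm38.p6; the builds were not mixed.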

Additional observations from a re-analysis of the deposited data

How the results depend on the processing

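Scaling to a common upper quartile gave 3 members for Day 1 against Day 0 in place of 6 and 15 genes of the wider list in place of 24, and turned the sign of Stat5b (0.41) and Socs2 (0.29) at Days 25 to 60 against GD17.5 to Day 5, of Stat5b at Day 1 against Day 0 (-0.05), and of Ghr (0.03) and Prlr (0.01) at Day 25 against Day 20, where scaling to a common sum gave 0.02 for Ghr. A filter at a mean of 5 FPKM left 13 of the wider list, since fewer genes were tested. As alternatives chosen after seeing the data, leaving out the 6 mice rich in muscle or pancreas markers gave 4 members in place of 7 for Day 0 against GD17.5 and 3 in place of 6 for Day 1 against Day 0, with Stat5b at -0.13 for Day 1 against Day 0, Ghr at 0.12 for Day 25 against Day 20 and Igfbp2 at 0.10 for Days 45 and 60 against Day 30; removing the trend with transcript length gave 0.04 for Ghr and 0.07 for Prlr at Day 25 against Day 20, and 0.03 for Igfbp2 at Days 45 and 60 against Day 30. Without the 6 mice rich in muscle or pancreas markers, Day 0 was left with a lone mouse. Apart from the upper quartile values, which follow the shift of all genes, the cause was not tested.

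Without 1 mouse at a time, the counts ranged from 4 to 8 for Day 0 against GD17.5 and from 2 to 6 for Day 1 against Day 0. They ranged from 8 to 10 for Days 10 to 20 against GD17.5 to Day 5 and from 0 to 1 for Days 45 and 60 against Day 30. Signs turned for Igfbp3 at Day 0 against GD17.5 (-0.08 to 0.50), Stat5b at Day 1 against Day 0 (-0.19 to 0.26), Ghr (-0.08 to 0.12) and Prlr (-0.29 to 0.37) at Day 25 against Day 20, and at Days 45 and 60 against Day 30 for Prlr (-0.12 to 0.57), Stat5b (-0.03 to 0.53), Igfals (-0.06 to 0.17) and Igfbp2 (-0.28 to 0.01). None of these differences was called as deposited. The replicate numbers were not taken to pair the mice, since no label ties a number to a litter. Of 198 same-numbered pairs of deviations, 104 correlated over 0.1 (r from -0.68 to 0.83, median 0.13). The correlation of deviation with transcript length was mostly positive in mice numbered 1 and mostly negative in mice numbered 3. Day 30 went the other way, with -0.69 in mouse 1 and 0.50 in mouse 3. Whether same-numbered mice share a source of deviation was not tested. With the number as a replicate block 59 of 110 comparisons with Day 60 passed in place of 58, 8 members in place of 7 at Day 0, 7 in place of 6 at Day 1 and 5 in place of 4 at Day 25, the added calls being Igf1 at birth (adjusted p = 0.0495), Igfals at Day 1 (0.0364) and Igfbp3 at Day 25 (0.041); Igfals also passed at Days 25 to 60 against Days 10 to 20 (0.0383). Dunnett's comparison of each member alone called 9 members and 53 comparisons with Day 60. Depth limits Prlr at GD17.5.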

Other observations

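Members of the axis differed in how far mice of the same age lay apart. The residual SD on the log2(FPKM + 1) scale was 0.54 for Igfbp1, higher than that of 97.6% of all genes tested, 0.48 for Socs2 (96.0%), 0.41 for Igfbp2 (92.6%) and 0.38 for Prlr (89.4%), against 0.14 for Igfbp4 (10.6%), 0.16 for Igf1 (22.4%) and 0.18 for Ghr (29.4%). At Day 15 the mouse with the highest Igfbp1 (195 FPKM beside 96.8 and 60.2) also had the highest Socs2 (9.27 beside 2.81 and 2.45), Igfbp2 (1803 beside 950 and 1231) and Igf2 (301 beside 103 and 48.2), and the lowest Igfals (60.6 beside 79.4 and 102), while Igf1 was 52.1, 53.3 and 53.9 FPKM in the 3 mice. These are the values of 1 animal, chosen after they were seen, and no test was made on them.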
